A study of Mus musculus with 17 samples.

Results

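The 36 genes described here encode the machinery that copies the chromosomes before a cell divides (13 replication genes) and the machinery that separates the copies (23 mitosis genes). They were chosen by name: a member is a row of the deposited table whose gene name equals its symbol. By this rule 35 of the 36, 22 mitosis and 13 replication genes, had a row among the 20420 loci with 1 gene symbol of their own, out of 30843 loci in all. Foxm1, the gene of a transcription factor that drives mitotic genes, shares its locus with 4933413G19Rik in the table and is given apart. RNA came from mammary glands of C57Bl/6 females that had not been pregnant, with 17 polyadenylated RNA libraries over 4 genotypes. Mice called AROM carried tet-op-CYP19A1MMTV-rtTA, a transgene of human aromatase, the enzyme that makes estrogens from androgens. Those called CERM carried tet-op-Esr1MMTV-rtTA, a transgene of estrogen receptor alpha. Mice called BRCA were Brca1fl11/fl11/MMTV-Cre/p53+/-, with exon 11 of the DNA repair gene Brca1 flanked for removal by Cre and 1 functional Trp53 allele, and WT mice were wild type. The labels used here give neither age nor treatment. The MMTV promoter is active mainly in mammary epithelium, so rtTA and Cre act in part of the cells of the gland, while the p53+/- change is in every cell.

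A cell that is about to divide first loads the ring-shaped helicase made of the Mcm2 to Mcm7 proteins onto replication origins, with the help of the licensing factors encoded by Cdc6 and Cdt1, and then unwinds and copies its DNA. Many replication genes are switched on by E2F transcription factors late in the G1 phase. The mitotic genes follow later, in G2, when kinases, motors and checkpoint proteins that build the spindle are made, and most of their products are destroyed again when the cell leaves mitosis. Transcripts of both groups are therefore widely used as markers of dividing cells, which in the virgin mammary gland are found among the epithelial cells of ducts and buds as well as among immune and stromal cells.

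The table holds 8 columns of FPKM (fragments scaled to transcript length and to the mapped fragments of a library), 1 for each genotype in single-end and in paired-end reads. The labels give 2 single-end libraries of every genotype and, paired-end, 3 of AROM, 3 of CERM, 2 of BRCA and 1 of WT. Each gene therefore has 1 pooled value for a genotype and layout, without any replicate error, and the differences below carry neither p-values nor a check in replicates. Per the labels' protocols the libraries were sequenced by both methods, so the layouts may hold the same RNA, and a value repeated in the other layout is not a repeat in other mice. Of the values above 0 in the WT columns, 67.1% in single-end and 68.4% in paired-end had more than 6 digits, as means of 3 values do, against at most 0.0658% in the other 6 columns. The labels give 2 and 1 WT libraries for these columns, so which values were averaged is not known, a limit on each ratio to WT. The depth behind a column is unknown too. Over all loci, FPKM summed to 1.2e+08 in AROM paired-end, against 4.3e+06 in WT, 4.3e+06 in CERM and 6.2e+06 in BRCA paired-end. The median FPKM of the genes analysed was 7.88, 8.62, 9.17 and 9.74 in the same order. The origin of the high AROM sum was not tested. Brca1 was at 3.28 FPKM in BRCA, 0.881 in AROM, 0.661 in CERM and 1.13 in WT in the single-end columns, a value over the whole locus that does not measure exon 11. Esr1 was at 8.49 FPKM in CERM against 7.27 in WT single-end, and at 8.41 against 6.89 paired-end, with 8.41 and 7.87 in AROM, which carries no Esr1 transgene, so genotype names below are those of the labels. Trp53 was at 12.1 FPKM in BRCA against 34.5 in WT in the paired-end columns.

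Mitosis genes stood in the same order in both layouts: lowest in the columns labelled AROM, then CERM, then WT, and highest in those labelled BRCA. Their geometric mean over 22 genes was 2.63 FPKM in AROM, 3.19 in CERM, 6.75 in BRCA and 4.43 in WT single-end. The paired-end values were 1.52 FPKM in AROM, 2.77 in CERM, 6.48 in BRCA and 3.54 in WT. Replication genes were also highest in BRCA, but their lowest column differed between layouts. Over 13 genes their geometric mean was 7.12 FPKM in AROM, 5.18 in CERM, 9.95 in BRCA and 7.95 in WT single-end. Paired-end it was 4.67 FPKM in AROM, 5.51 in CERM, 9.58 in BRCA and 6.25 in WT, so that CERM was lowest in the first layout and AROM in the second. The paired-end order of CERM and AROM depended on how columns were scaled. The median log2 ratio of FPKM + 1, CERM over AROM, was 0.20 for replication genes, near the 0.18 of all genes. Scaling the columns by median ratios brought the replication median to 0.02. In whole tissue, fewer dividing cells and less of these RNAs per cell cannot be told apart.

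**Figure D1:**
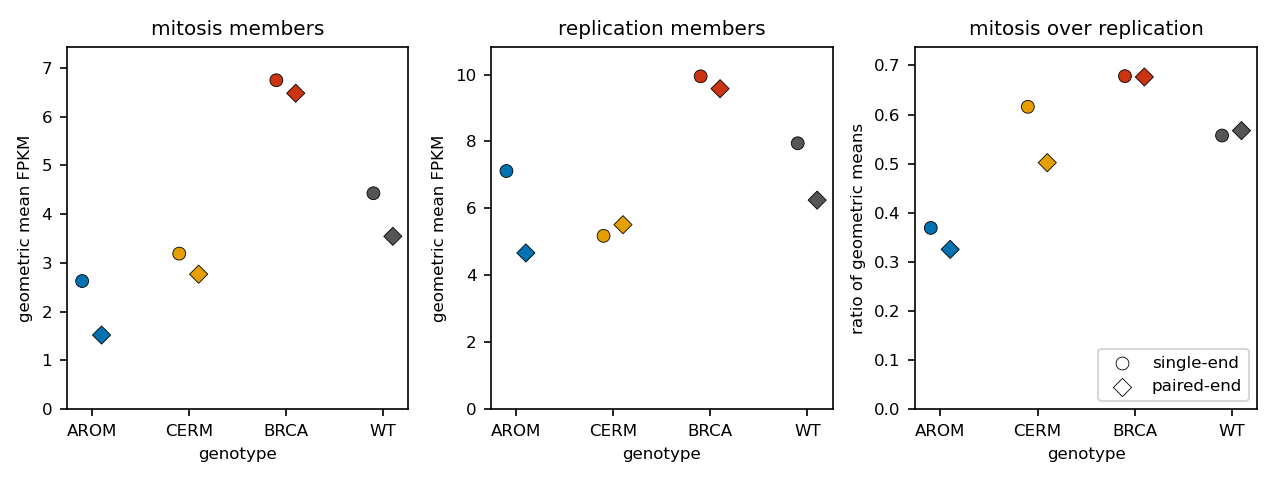
Geometric mean FPKM of the 22 mitosis members (left) and 13 replication members (middle), and their ratio (right), by genotype; circles are single-end columns and diamonds paired-end columns, 1 pooled value each, with no error bars because there are no replicate values. The ratio is lowest in AROM in both layouts, 0.369 and 0.325.

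The ratio of both geometric means within a column does not depend on how columns were scaled to each other. It was 0.369 in AROM, 0.616 in CERM, 0.678 in BRCA and 0.557 in WT single-end, and 0.325 in AROM, 0.502 in CERM, 0.676 in BRCA and 0.567 in WT paired-end. In AROM, mitosis transcripts were thus low relative to replication transcripts of the same column, in both layouts. For BRCA and WT the ratio differed little between layouts, while for CERM it lay above the WT ratio in single-end reads and below it in paired-end reads.

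Genes were analysed in a layout when they had at least 1 FPKM in at least 2 of its 4 columns, which left 34 members of 11715 genes single-end and 32 of 11535 paired-end. BRCA was the highest column for 31 of the 34 members single-end, against 38% of all genes analysed, and for 32 of 32 paired-end, against 41.7% of all genes. The exceptions were Mcm6, Mcm7 and Cdt1, which were highest in WT single-end. Bub1, Cenpe and Cenpf single-end and Cenpe paired-end reached 1 FPKM in BRCA and WT alone. In counts of analysed genes, here and below, these members had to be higher there than in AROM and CERM. AROM was the lowest column for 21 of 22 mitosis genes single-end, where Aurka was lowest in WT, and for 20 of 20 paired-end; the shares of all genes lowest in AROM were 27% and 47.2%. CERM was the lowest column for 12 of 12 replication genes single-end, against 23.6% of all genes, but for 1 of 12, Mcm2, paired-end, against 13.6%. AROM was lowest for the other 11. Scaling the columns by median ratios left the mitosis and single-end counts as they are, but split the paired-end replication genes, 6 lowest in AROM, 5 in CERM and 1, Gins1, in BRCA.

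**Figure D2:**
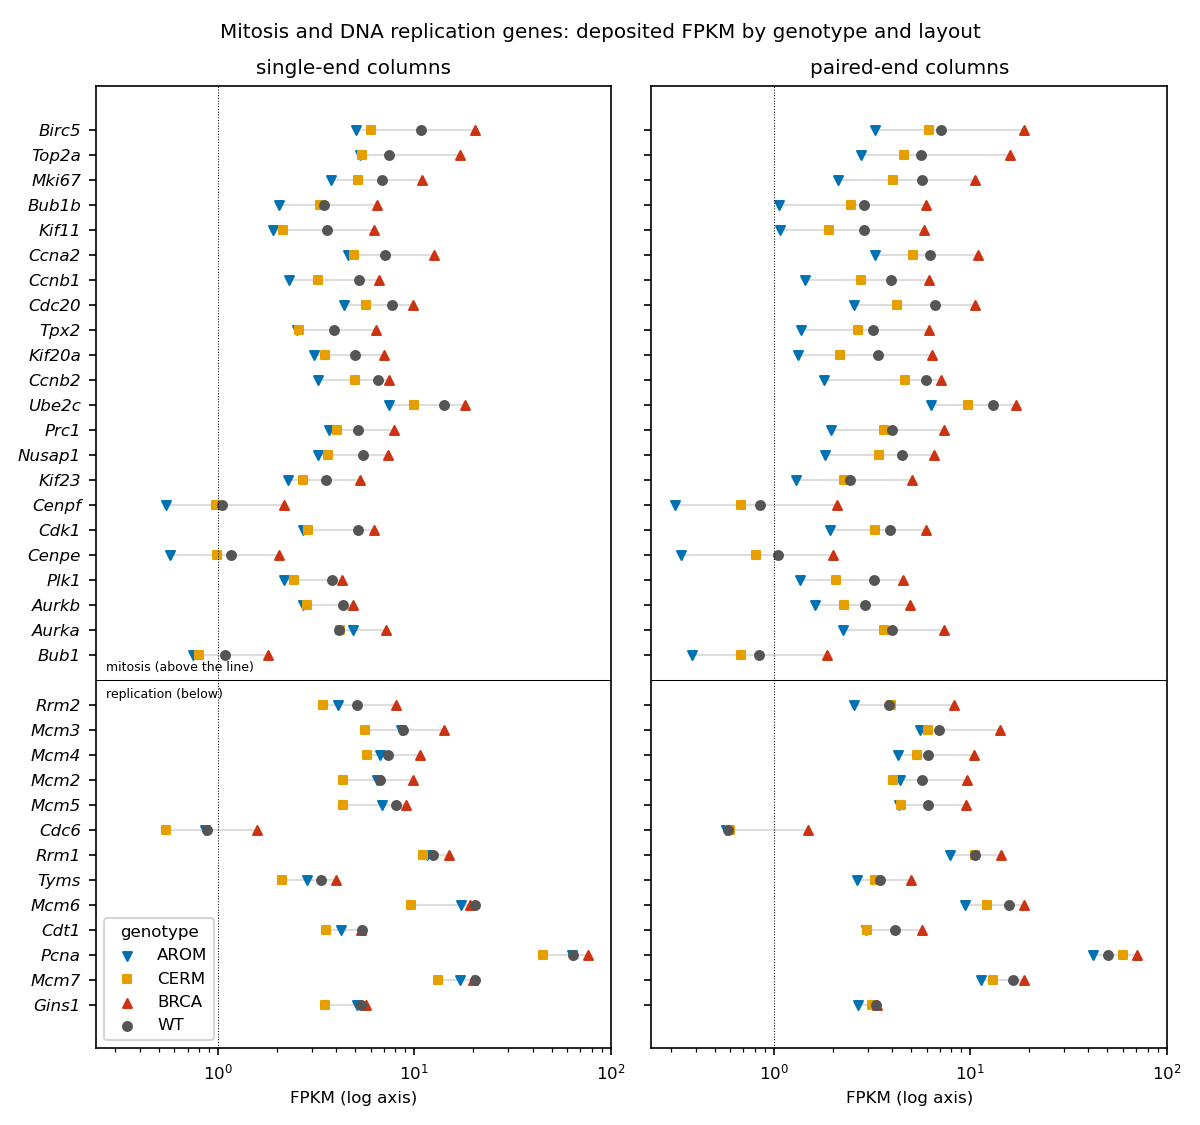
FPKM (log axis) of the 35 members with a row of their own in the single-end (left) and paired-end (right) columns; each point is the 1 pooled value of a genotype, grey lines join the lowest and highest, and the dotted line marks 1 FPKM. Red triangles (BRCA) lie at the right for nearly all genes, blue triangles (AROM) at the left for the mitosis genes, and orange squares (CERM) at the left for replication genes in the single-end columns, but for Mcm2 alone of those analysed in the paired-end columns.

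For the mitosis genes the widest separation was that of BRCA from AROM. Below, a log2 ratio is that of FPKM + 1, a scale that understates the ratio of low genes, and a gene counts as 2-fold apart when its log2 ratio is at least 1 or at most -1. Of the mitosis genes, 11 of 22 were at least 2-fold higher in BRCA single-end, where 4.68% of all genes analysed were, and 20 of 20 paired-end, where 9.97% of all genes were. Their median log2 ratio was 1.00 single-end and 1.52 paired-end, and the median of all genes was 0.02 and 0.21. Of 12 replication genes, none single-end and 3 paired-end, Mcm3, Mcm4 and Rrm2, were 2-fold higher, with medians of 0.35 and 0.85. Mitosis genes that passed in both layouts were Mki67, Top2a, Birc5, Ccnb1, Ccna2, Cdc20, Bub1b, Kif11, Tpx2 and Ube2c, 10 of the 11 that passed single-end and 10 of the 23 members that passed paired-end. Cenpf, the other that passed single-end, was not analysed paired-end. Here and below, the share of all genes that passed in both layouts was not computed, and the layouts may hold the same RNA. After median-ratio scaling 10 members passed single-end and 18 paired-end, where 4.16% and 5.55% of all genes did.

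Birc5, which encodes survivin, a subunit of the chromosomal passenger complex that corrects chromosome attachment, had the highest log2 ratio of FPKM + 1. It was at 20.4 FPKM in BRCA and 5.02 in AROM single-end, with 5.99 in CERM and 10.8 in WT, and at 18.8 FPKM in BRCA and 3.28 in AROM paired-end, with 6.19 in CERM and 7.06 in WT. In FPKM, BRCA was therefore 4.07 and 5.73 times AROM, and paired-end Top2a, at 5.75 times, and Cenpe, at 5.99 times, were above it. Top2a, the gene of the topoisomerase that untangles sister chromatids, was at 17.0 FPKM in BRCA, 5.44 in CERM, 5.27 in AROM and 7.40 in WT single-end, and at 16.0 FPKM in BRCA, 4.62 in CERM, 2.79 in AROM and 5.60 in WT paired-end. BRCA was at least 2-fold above each other genotype for Top2a in FPKM. Mki67, whose product coats mitotic chromosomes and is the Ki-67 antigen of pathology, was at 11.0 FPKM in BRCA, 5.16 in CERM, 3.78 in AROM and 6.86 in WT single-end, and at 10.6, 4.02, 2.11 and 5.65 FPKM in the same genotypes paired-end. For this gene the 4 genotypes were spread more evenly. Among replication genes the highest ratios were those of Rrm2, a subunit of ribonucleotide reductase, and Mcm3. Rrm2 was at 8.09 FPKM in BRCA and 4.10 in AROM single-end, and at 8.31 FPKM in BRCA and 2.55 in AROM paired-end. Mcm3 was at 14.2 FPKM in BRCA and 8.53 in AROM single-end, and at 14.1 FPKM in BRCA and 5.57 in AROM paired-end.

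Because the members lay higher in BRCA together, their promoters are shown: the 3 mitosis and 2 replication members with the highest mean ratio of BRCA to AROM among the 29 members with a RefSeq promoter window (build GRCm38.p6, 300 bases, from 250 before to 50 after the annotated start). Capitals mark 3 kinds of motif, searched on both strands: the cell cycle homology region (CHR; TTTGAA or TTCGAA), the CCAAT box (CCAAT) and an E2F motif (TTGGCGC or TTCGCGC). Each sequence is written 5' to 3' on the strand of its gene. The windows lie at chr11:117848987-117849286 (+) for Birc5, chr11:99024140-99024439 (-) for Top2a, chr7:135716330-135716629 (-) for Mki67, chr12:24708004-24708303 (+) for Rrm2 and chr1:20820263-20820562 (-) for Mcm3.
Birc5: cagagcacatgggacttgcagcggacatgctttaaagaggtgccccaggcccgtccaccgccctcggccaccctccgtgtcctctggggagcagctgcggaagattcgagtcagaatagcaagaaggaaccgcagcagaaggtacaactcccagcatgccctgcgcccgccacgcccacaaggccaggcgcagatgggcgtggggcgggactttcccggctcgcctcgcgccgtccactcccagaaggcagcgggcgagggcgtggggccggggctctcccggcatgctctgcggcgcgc
Top2a: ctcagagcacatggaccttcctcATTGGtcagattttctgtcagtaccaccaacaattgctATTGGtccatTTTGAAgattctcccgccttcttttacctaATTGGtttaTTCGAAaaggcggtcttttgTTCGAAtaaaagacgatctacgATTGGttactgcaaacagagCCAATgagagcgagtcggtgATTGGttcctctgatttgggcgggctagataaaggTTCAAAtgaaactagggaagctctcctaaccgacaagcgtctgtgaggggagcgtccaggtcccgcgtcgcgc
Mki67: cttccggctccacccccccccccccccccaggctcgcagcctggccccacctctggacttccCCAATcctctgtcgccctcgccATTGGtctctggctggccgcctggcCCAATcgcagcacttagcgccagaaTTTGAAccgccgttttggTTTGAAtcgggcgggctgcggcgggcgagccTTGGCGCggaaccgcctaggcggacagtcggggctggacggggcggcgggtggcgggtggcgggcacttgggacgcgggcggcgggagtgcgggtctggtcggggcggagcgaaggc
Rrm2: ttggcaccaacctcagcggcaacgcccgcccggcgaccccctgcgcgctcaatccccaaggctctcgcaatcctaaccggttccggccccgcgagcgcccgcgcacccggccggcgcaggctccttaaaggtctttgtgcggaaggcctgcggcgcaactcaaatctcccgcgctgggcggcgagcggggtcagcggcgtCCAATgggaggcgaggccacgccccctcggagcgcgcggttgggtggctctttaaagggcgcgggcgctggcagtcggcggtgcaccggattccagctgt
Mcm3: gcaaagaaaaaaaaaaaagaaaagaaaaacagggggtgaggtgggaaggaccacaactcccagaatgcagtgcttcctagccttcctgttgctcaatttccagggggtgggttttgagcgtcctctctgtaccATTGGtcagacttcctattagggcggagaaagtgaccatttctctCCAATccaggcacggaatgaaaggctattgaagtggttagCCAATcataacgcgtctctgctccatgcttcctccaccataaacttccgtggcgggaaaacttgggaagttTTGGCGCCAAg
The CHR is the element by which the DREAM and MuvB complexes and Foxm1 are known to reach mitotic genes, CCAAT is bound by NF-Y, and E2F motifs by E2F factors and their Rb family partners. Top2a holds 4 CHR matches and 6 CCAAT boxes, and Mki67 holds 2 CHR matches, 3 CCAAT boxes and 1 E2F match. Rrm2 has 1 CCAAT box, and Mcm3 has 3 CCAAT boxes and 2 E2F matches that overlap on opposite strands just inside the transcript, at bases 40 and 43 from the start. In the Birc5 window none of these letters were found. Over the members with a window, a CHR was found in 14 of 18 mitosis genes (77.8%) and 2 of 11 replication genes (18.2%), against 19.2% of all 32851 windows of this length. The E2F motif was found in 3 of 18 mitosis genes (16.7%) and 5 of 11 replication genes (45.5%), against 3.89% of all windows. CCAAT was found in 16 of 18 (88.9%) and 8 of 11 (72.7%), against 37.4%. Members were counted as genes with a match in any of their windows, while the shares of all are per window. The 29 members had 31 windows, so those with more than 1 had more room for a match. A match of letters is a description and not a measured binding site.

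**Figure D3:**
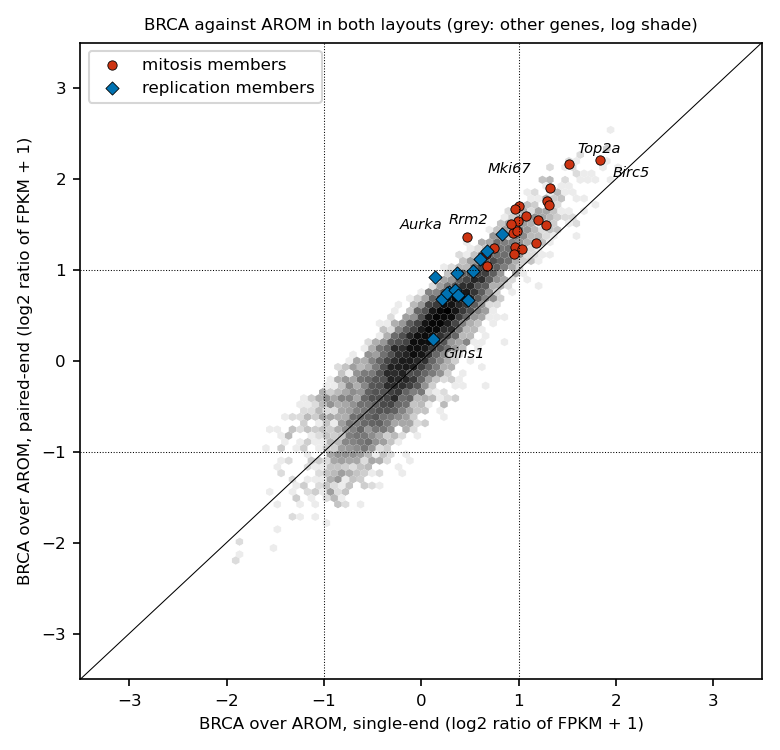
Log2 ratio of FPKM + 1, BRCA over AROM, in single-end (x axis) and paired-end columns (y axis) for the 35 members and, as grey hexagons shaded on a log scale, the genes analysed in both layouts; dotted lines mark 2-fold and the diagonal equal ratios. By their medians, mitosis members (red; 1.00 and 1.52) lie further out than replication members (blue, 0.35 and 0.85), but the groups overlap. Both lie above the diagonal, as does the median of all genes (0.02 single-end, 0.21 paired-end).

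The comparison of BRCA with WT asked which of these genes differ in the Brca1 model. Mitosis genes were higher in BRCA, by a median log2 ratio of 0.48 single-end and 0.73 paired-end, with 22 of 22 and 20 of 20 above 0, while the median of all genes was 0.04 and 0.10. Here and below, the share of all genes on the same side of 0 was not computed. With medians above 0, most of all genes lay above 0 here as well. At 1.5-fold, 9 of 22 mitosis and 1 of 12 replication genes were higher single-end, where 9.18% of all genes were, and 13 of 20 and 4 of 12 paired-end, where 12.4% of all genes were. At 2-fold, Top2a was higher in both layouts and Birc5 in the paired-end columns, with 2.97% and 4.36% of all genes higher in the 2 layouts. Replication genes had medians of 0.22 and 0.45, a step that was smaller than that of the mitosis genes and lay near 0 for part of them. Mcm6, Mcm7 and Cdt1 lay at -0.09, -0.03 and -0.01 single-end, and at 0.24, 0.18 and 0.38 paired-end. Gins1, which belongs to the complex that activates the helicase, reached 5.66 FPKM in BRCA against 5.34 in WT single-end, and 3.34 against 3.32 paired-end, so it did not separate these genotypes.

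Within the mitosis genes the distance of BRCA from WT varied from gene to gene, with ranges that overlapped between some roles but not between all. Top2a and Birc5 lay furthest, at 1.10 and 0.86 single-end and 1.37 and 1.30 paired-end, while Mki67 lay at 0.61 and 0.80. Ccna2, the cyclin gene active from S phase to early mitosis, lay at 0.76 and 0.73, with 12.6 FPKM in BRCA against 7.06 in WT single-end and 11.0 against 6.21 paired-end. The mitotic cyclin Ccnb2 lay at 0.17 and 0.22, with 7.45 FPKM in BRCA against 6.50 in WT single-end and 7.08 against 5.93 paired-end. Cdk1, the kinase gene that both cyclins activate, lay at 0.23 and 0.51, and Ccnb1 at 0.28 and 0.53. Of the mitotic kinase genes, Aurka, which acts at spindle poles, lay at 0.66 and 0.73, Aurkb, the enzyme of the passenger complex, at 0.14 and 0.60, and Plk1 at 0.14 and 0.40. The 6 spindle motor and microtubule genes (Kif11, Kif20a, Kif23, Tpx2, Nusap1 and Prc1) lay between 0.38 and 0.66 single-end and between 0.46 and 0.82 paired-end. The kinetochore genes Cenpe and Cenpf lay between 0.49 and 0.63 and between 0.56 and 0.74, and the spindle checkpoint genes Bub1 and Bub1b between 0.42 and 0.73 and between 0.64 and 0.85, although Bub1 and Cenpf were under the filter paired-end. Cdc20 and Ube2c, which help to destroy cyclins at the end of mitosis, lay between 0.31 and 0.34 and between 0.36 and 0.59.

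The comparison of AROM with WT showed lower mitosis genes in AROM, with medians of -0.55 single-end and -0.87 paired-end, where the median of all genes was 0.00 and -0.08. At 1.5-fold, 10 of 22 mitosis genes were lower single-end and 19 of 20 paired-end, against 5.37% and 8.99% of all genes. At 2-fold, none was lower single-end, where 1.7% of all genes were, and 4 were paired-end, Mki67, Ccnb1, Ccnb2 and Cdc20, where 2.83% of all genes were. After median-ratio scaling 1 of these 4, Ccnb2, was still 2-fold lower, where 2.09% of all genes were. The cyclin B genes were among the furthest in both layouts. Ccnb2 was at 3.24 FPKM in AROM against 6.50 in WT single-end and at 1.79 against 5.93 paired-end, and Ccnb1 at 2.30 FPKM in AROM against 5.25 in WT single-end and at 1.44 against 3.96 paired-end. Ube2c, the gene of a ubiquitin-conjugating enzyme of the anaphase-promoting complex, was at 7.47 FPKM in AROM against 14.2 in WT single-end and at 6.34 against 13.1 paired-end. Cdc20, the activator of that complex, was at 4.41 FPKM in AROM against 7.73 in WT single-end and at 2.55 against 6.66 paired-end. The exception was Aurka, at 4.90 FPKM in AROM against 4.15 in WT single-end and at 2.24 against 4.02 paired-end, so its direction differed between layouts.

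Replication genes lay below WT in AROM by less than the mitosis genes, 12 of 12 of them in each layout. Their median log2 ratio was -0.15 single-end, between -0.30 (Cdt1) and -0.01 (Pcna), and -0.38 paired-end, between -0.68 (Mcm6) and -0.23 (Gins1), where the median of all genes was 0.00 and -0.08. Paired-end, most of all genes thus lay below WT as well, and their share was not computed. None of 12 was 1.5-fold lower single-end and 1 of 12, Mcm6, was paired-end, near or below the 5.37% and 8.99% of all genes. Pcna, the sliding clamp gene and the most abundant member, was at 63.7 FPKM in AROM against 64.3 in WT single-end and at 42.0 against 50.6 paired-end. Mcm2 was at 6.49 FPKM in AROM against 6.65 in WT single-end and at 4.38 against 5.69 paired-end. The paired-end medians were smaller in size after median-ratio scaling, at -0.76 for mitosis and -0.23 for replication genes.

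**Figure D4:**
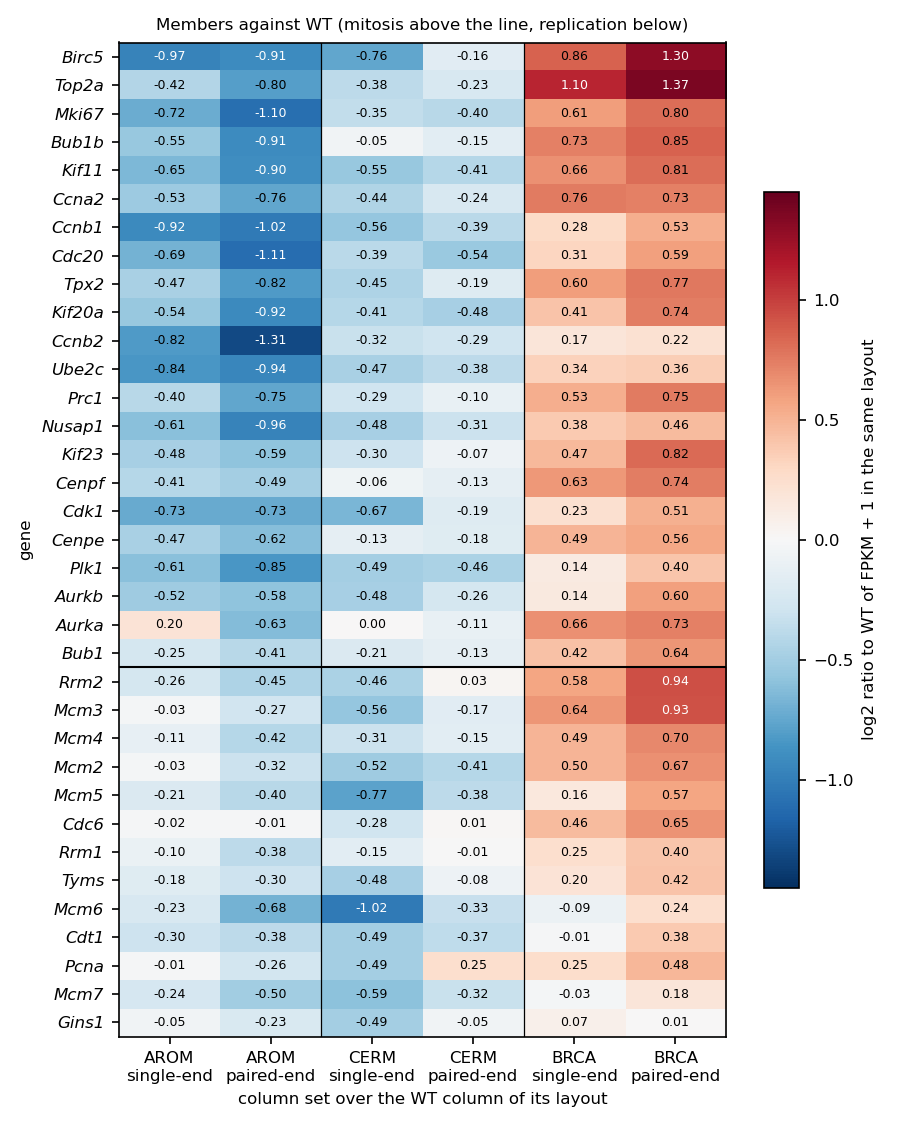
Log2 ratio of FPKM + 1 to the WT column of the same layout for the 35 members (rows) in AROM, CERM and BRCA (columns, single-end then paired-end); blue is lower and red higher than WT, with the value printed in each cell. The AROM columns are blue mainly in the mitosis genes (medians -0.55 and -0.87). CERM single-end is blue in both the replication genes (median -0.49) and the mitosis genes (median -0.40).

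The comparison of CERM with WT gave a different split. Single-end, replication genes lay as low as mitosis genes or lower, with medians of -0.49 and -0.40 and 12 of 12 and 21 of 22 below 0. The median of all genes was -0.05, so most of them lay below 0 too, and their share was not computed. At 1.5-fold, 3 of 12 replication and 2 of 22 mitosis genes were lower, where 3.75% of all genes were, and at 2-fold 1, Mcm6, where 0.999% of all genes were. Paired-end, the medians were -0.16 for replication and -0.25 for mitosis genes, where the median of all genes was 0.04, and no member was lower by 1.5-fold or 2-fold, where 3.68% and 0.824% of all genes were. Mcm6 was at 9.56 FPKM in CERM against 20.5 in WT single-end, and at 12.2 against 15.7 paired-end. Mcm5 was at 4.31 FPKM in CERM against 8.06 in WT single-end, and at 4.43 against 6.08 paired-end. Both helicase genes were below WT in both layouts, by less paired-end. Pcna lay on different sides of WT, at 45.5 FPKM in CERM against 64.3 in WT single-end and at 60.3 against 50.6 paired-end. Tyms, the thymidylate synthase gene, was at 2.13 FPKM in CERM against 3.35 in WT single-end and at 3.26 against 3.49 paired-end. Among mitosis genes the lowest were Birc5 and Cdk1 single-end (-0.76 and -0.67) and Cdc20 and Kif20a paired-end (-0.54 and -0.48).

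CERM was set against AROM, the other tetracycline-controlled transgene, without use of the WT columns. Mitosis genes were higher in CERM, with medians of 0.13 single-end and 0.56 paired-end. Above 0 lay 21 of 22 and 20 of 20, and the median of all genes was -0.03 and 0.18. Paired-end, most of all genes thus lay above 0 as well, and their share was not computed. At 2-fold none was higher single-end, where 1.46% of all genes were, and 1, Ccnb2, paired-end, where 3.83% of all genes were. Replication genes lay on opposite sides in the 2 layouts, with a median of -0.40 single-end and 0.20 paired-end, and the second was 0.02 after median-ratio scaling. The order of CERM and AROM for replication genes was therefore not the same in both layouts. With that scaling the single-end median was still -0.37, against the 0.02 paired-end.

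BRCA against CERM also leaves out the WT columns. Both groups were higher in BRCA: medians were 0.81 for mitosis and 0.77 for replication genes single-end, and 0.90 and 0.66 paired-end, where the median of all genes was 0.06 and 0.05. At 2-fold, 5 of 22 mitosis and 3 of 12 replication genes were higher single-end, where 2.37% of all genes were, and 7 of 20 and 2 of 12 paired-end, where 2.3% of all genes were. Top2a, Birc5, Kif11, Mcm2 and Mcm3 passed in both layouts, 5 of the 8 that passed single-end and 5 of the 9 that passed paired-end. After median-ratio scaling 5 passed single-end and 6 paired-end, where 1.91% and 1.71% of all genes did. Of the 5 genes named, Top2a, Birc5 and Kif11 still passed in both. Kif11, the motor gene that pushes spindle poles apart, was at 6.24 FPKM in BRCA against 2.13 in CERM single-end and at 5.80 against 1.92 paired-end. Mcm2 was at 9.81 FPKM in BRCA against 4.35 in CERM single-end and at 9.62 against 4.03 paired-end. Comparisons that share a column are not independent of each other, and each is given with its own values.

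Foxm1 could not be separated from 4933413G19Rik. The shared locus was at 4.31 FPKM in BRCA, 1.74 in AROM, 1.89 in CERM and 2.29 in WT single-end, and at 4.36 in BRCA, 1.10 in AROM, 1.52 in CERM and 2.13 in WT paired-end. Some members were near the limit of 1 FPKM. Cdc6 was left out of both layouts, at 1.59 FPKM in BRCA, 0.858 in AROM, 0.547 in CERM and 0.883 in WT single-end. Bub1 and Cenpf were left out paired-end, where BRCA alone reached 1 FPKM. Bub1, Cenpe and Cenpf single-end and Cenpe paired-end passed through BRCA and WT alone, so these members had to be higher there than in AROM and CERM. With no filter, over all 22 mitosis and 13 replication genes with a row, the medians of BRCA against AROM lay within 0.1 of those above, and 22 of 22 mitosis genes were 2-fold higher in BRCA paired-end, where 6.33% of all 20420 genes were.

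Further genes of these pathways were examined beside the members. They were named from general knowledge but with earlier results of these data known, so they are not an independent check. Of 35 further mitosis genes 28 were analysed single-end and 23 paired-end, and 8 and 16 of them were at least 2-fold higher in BRCA than in AROM, with medians of 0.87 and 1.21, where 4.68% and 9.97% of all genes were 2-fold higher and the medians of all genes were 0.02 and 0.21. Of those analysed, 6 single-end and 2 paired-end reached 1 FPKM in BRCA and WT alone, so these had to be higher there. Over all 31 with a row and no filter, 8 and 20 were 2-fold higher, where 3.25% and 6.33% of all genes were, with medians of 0.86 and 1.13. Ndc80, Nuf2, Cdca8, Kif2c, Ect2, Ckap2l, Cenpa and Pbk passed in both layouts. Ndc80, a kinetochore gene that binds microtubules, was at 4.94 FPKM in BRCA, 1.40 in AROM, 1.40 in CERM and 2.49 in WT single-end, and at 4.58, 0.764, 1.55 and 1.82 FPKM in the same genotypes paired-end. Pttg1, the securin gene, was lower in BRCA paired-end, at 8.25 FPKM in BRCA against 25.1 in AROM, and was at 9.61 against 8.03 single-end. Of 33 further replication genes 31 and 29 were analysed, and 3 and 8 were 2-fold higher in BRCA than in AROM, with medians of 0.31 and 0.60, against the same 4.68% and 9.97% and the same medians of all genes. Dbf4, which activates the origin-firing kinase, Tk1, the thymidine kinase gene, and Uhrf1, which guides maintenance of DNA methylation, passed in both layouts. Tk1 was at 13.8 FPKM in BRCA, 4.80 in AROM, 4.40 in CERM and 7.04 in WT single-end, and at 13.7, 3.36, 5.55 and 5.29 FPKM in the same genotypes paired-end. In AROM against WT the further mitosis genes had medians of -0.43 and -0.58 and the further replication genes of -0.13 and -0.30, and in CERM against WT of -0.37 and -0.15 and of -0.39 and -0.16. The 8 condensin genes, whose products fold mitotic chromosomes, had medians of 0.76 and 1.09 in BRCA against AROM, and 2 and 5 of them were past 2-fold, Smc2 and Smc4 in both layouts.

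Regulators of these genes were examined as well. Of 18 E2F, Rb family and DREAM genes 15 and 13 were analysed; none single-end and 1 paired-end, Lin9, was 2-fold higher in BRCA than in AROM, where 4.68% and 9.97% of all genes were, and the medians were 0.32 and 0.49. With no filter, E2f2 and Mybl2 were 2-fold higher paired-end too, where 6.33% of all genes were. Mybl2, a partner of the MuvB complex at mitotic genes, was at 2.44 FPKM in BRCA and 0.561 in AROM paired-end, and E2f2, an activating E2F gene, was at 1.87 FPKM in BRCA and 0.379 in AROM. Lin9, a core subunit of the MuvB complex that binds the CHR, was at 5.27 FPKM in BRCA, 2.72 in AROM, 3.51 in CERM and 4.02 in WT single-end, and at 5.05, 1.80, 3.15 and 3.29 FPKM in the same genotypes paired-end. E2f2 and Mybl2 were named after their values were seen.

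Markers of cell types moved with the members in part. Luminal epithelial markers, 11 of 12 with a row and none at 0 in any column, summed to 502 FPKM in AROM, 676 in CERM, 1003 in BRCA and 1003 in WT single-end, and to 296 in AROM, 633 in CERM, 994 in BRCA and 810 in WT paired-end. In AROM against WT, 6 and 9 of 11 of them were at least 2-fold lower, where 1.7% and 2.83% of all genes were, with medians of -1.04 and -1.54, further from 0 than those of the mitosis genes. In CERM they were below WT as well, by less. T cell markers, 8 of 10 with a row and none at 0, summed to 13.7 FPKM in AROM, 28.4 in CERM, 49.8 in BRCA and 24.4 in WT single-end, and to 13.7, 23.4, 50.1 and 21.2 FPKM in the same genotypes paired-end. B cell markers, 8 of 8 with a row and none at 0, summed to 4.58 FPKM in AROM, 5.33 in CERM, 46.9 in BRCA and 7.20 in WT single-end, and to 3.79, 5.76, 45.0 and 4.85 FPKM in the same genotypes paired-end. Both lymphocyte lists were highest in BRCA, as the members were. Skeletal muscle markers, 9 of 10 with a row and none at 0, summed to 38659 FPKM in AROM, 40885 in CERM, 17102 in BRCA and 13466 in WT single-end, and to 24954, 31103, 16517 and 21909 FPKM in the same genotypes paired-end. Macrophage markers, 7 of 10 with a row and none at 0, summed to 608 FPKM in AROM, 755 in CERM, 1060.2 in BRCA and 871 in WT single-end, and to 482, 1399, 1025 and 697 FPKM in the same genotypes paired-end. White adipocyte markers, 9 of 10 with a row and none at 0, summed to 20742 FPKM in AROM, 11891 in CERM, 9679 in BRCA and 15510 in WT single-end, and to 26002, 17655, 8972 and 11540 FPKM in the same genotypes paired-end. Lyz2 alone was at 556 FPKM of the macrophage sum in WT single-end. The median log2 ratio of the 7 macrophage genes to WT was 0.98 and 1.40 in BRCA, 0.17 and 1.28 in CERM and 0.04 and 0.32 in AROM. Basal epithelial markers, 5 of 8 with a row and none at 0, summed to between 184 and 360.0 FPKM over all columns, and endothelial markers, 8 of 8 with a row and none at 0, to between 181 and 280.1 FPKM. Unlike the members, neither list was higher in BRCA than in WT by its median, which was -0.33 and -0.07 for basal and -0.49 and -0.31 for endothelial markers. Adipocyte sums were highest in AROM and lowest in BRCA in both layouts, the genotypes in which mitosis genes were lowest and highest. The part of these cell types in the results on the members was not tested.

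**Figure D5:**
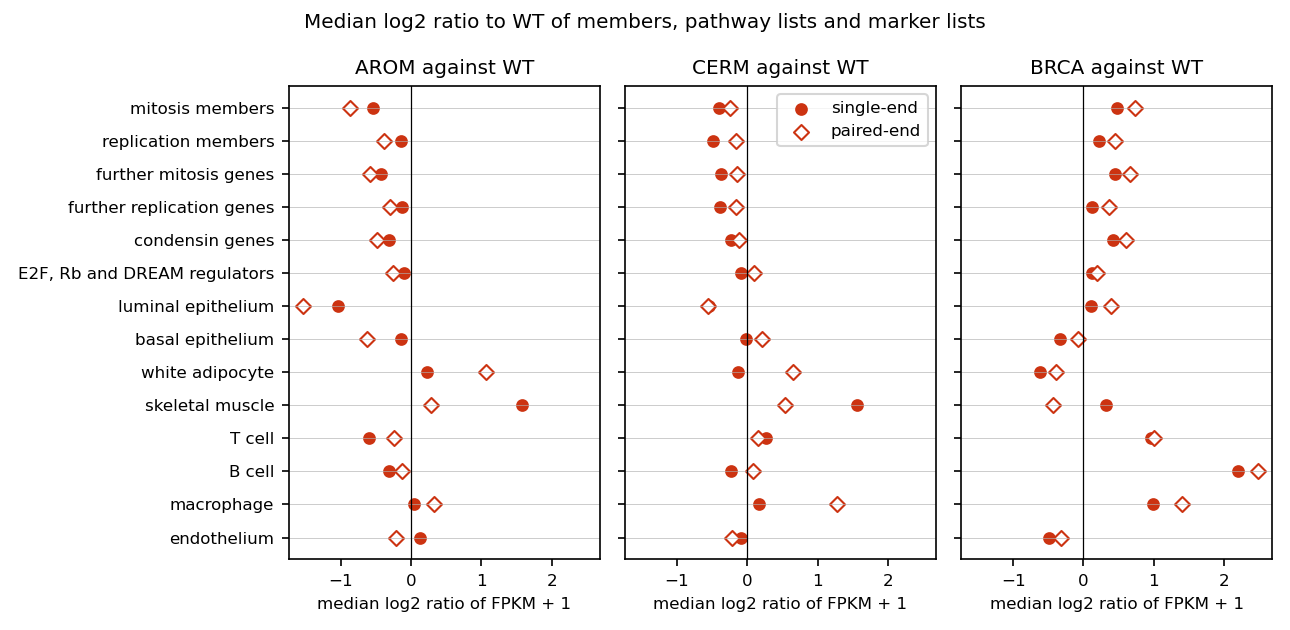
Median log2 ratio of FPKM + 1 to WT for the member groups, the pathway lists and the cell type marker lists; filled circles are single-end and open diamonds paired-end columns. Luminal markers are low in AROM (-1.04 and -1.54), as the mitosis members are (-0.55 and -0.87), and B cell markers are high in BRCA, where 2 of the 8 listed were analysed.

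The same genotype was also set against itself between layouts, single-end over paired-end. Such a ratio holds any difference between the read layouts and any between the pooled libraries, which cannot be told apart. In BRCA the median log2 ratio was 0.07 for 20 mitosis and 0.03 for 12 replication genes analysed in both layouts, and in CERM 0.15 and -0.01. In AROM it was 0.54 for both groups, where the median of all 11408 genes was 0.24. In WT it was 0.23 and 0.31, where that of all genes was 0.13. These values are not on a par with the ratios within a layout, where a layout difference shared by all columns cancels. The median ratio of AROM to WT itself was -0.55 single-end and -0.87 paired-end for mitosis genes, and -0.15 and -0.38 for replication genes. In BRCA the single genes lay between -0.09 and 0.19 for mitosis and between -0.26 and 0.62 for replication, with Gins1 at the upper end. The labels give 2 single-end and 3 paired-end AROM libraries, and the part of the libraries in this gap was not tested.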

How the data were processed

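Gene expression was measured by RNA sequencing of mouse mammary glands. The FPKM table that the authors deposited has 8 columns, 1 pooled value for a genotype and read layout, per the file headers. The tools named in the submitters' processing notes are TopHat, Cufflinks, Trim Galore and FastQC, and the build named is mm9; neither their versions nor how libraries were pooled is given in the sources used here. Strand handling is not given either, so overlapping genes cannot be separated.

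Loci with 1 symbol of their own were kept (20420; 8119 loci had no name, 585 several symbols and 1719 a shared symbol). From these values, log2 ratios of FPKM + 1 were computed within each layout with Python 3.11.15 and pandas 2.3.3. They covered all genes that reached 1 FPKM in 2 or more of a layout's 4 columns. Genes at least 2-fold (or 1.5-fold) apart were counted. The call rule was run on simulated data with set changes, a check of the code that does not measure the error of these columns. Medians of lists stand beside the median of all genes. With 1 column per genotype and layout no test was run. Alternatives were a pseudocount of 0.1, no filter and median-ratio scaling. Members and lists were chosen with earlier results of these data known. Named are the members, list genes 2-fold apart in both layouts or at the end of their list, and the engineered genes. Promoter sequences are RefSeq's, build GRCm38.p6, matched by symbol for 29 of 36 members, and motifs were searched as letters. No coordinates of the table's own build are given.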

Additional observations from a re-analysis of the deposited data

How the results depend on the processing

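No paired analysis was possible because the table holds 1 pooled column per genotype and layout and no library columns; for the same reason no library could be left out. Of the 24 medians, none changed direction, and without the filter all stayed within 0.1 on the log2 scale, the shift taken as no move. With a pseudocount of 0.1, which by construction widens the ratios of low genes, the mitosis medians were -0.76 single-end and -1.18 paired-end for AROM against WT, 0.63 and 0.86 for BRCA against WT, 1.23 and 1.97 for BRCA against AROM and 0.99 and 1.12 for BRCA against CERM, and 0.77 paired-end for CERM against AROM. The replication medians were -0.60 single-end for CERM against WT, 0.89 single-end for BRCA against CERM and 0.96 paired-end for BRCA against AROM. Median-ratio scaling moved paired-end medians, by construction through its column factors: mitosis genes lay at -0.76 in AROM against WT, 0.59 in BRCA against WT, 0.39 in CERM against AROM and 1.26 in BRCA against AROM, and replication genes at -0.23, 0.31, 0.023 and 0.55 in the same comparisons. It moved the paired-end median of all genes to 0.07 from -0.08 in AROM against WT, to -0.03 from 0.10 in BRCA against WT, to -0.01 from 0.18 in CERM against AROM and to -0.07 from 0.21 in BRCA against AROM. Counts of members past 2-fold were higher with a pseudocount of 0.1: 19 in place of 11 in BRCA against AROM single-end (7.38% of all genes), 15 in place of 8 and 19 in place of 9 in BRCA against CERM (4.3% and 3.94%), 2 in place of 0 and 13 in place of 4 in AROM against WT (2.83% and 5.3%), 6 in place of 2 in BRCA against WT paired-end (6.5%) and 3 in place of 1 in CERM against AROM paired-end (7.07%). Median-ratio scaling gave 1 in place of 4 in AROM against WT paired-end (2.09%), 5 in place of 8 in BRCA against CERM single-end (1.91%), and 0 in place of 1 in CERM against WT single-end (0.956%) and CERM against AROM paired-end (2.4%). At 1.5-fold, 24 members were higher in BRCA than in AROM single-end (13.6%), and 29 single-end and 25 paired-end in BRCA than in CERM (8.64% and 8.45%). Depth is unknown, so members near 1 FPKM have no known counting error.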
